A study of Mus musculus with 4 samples.

Results

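The glutathione, peroxiredoxin and thioredoxin genes were described in J1 mouse embryonic stem cells with a doxycycline-inducible knockdown of Chd4. Chd4 is the chromatin remodeller at the core of the NuRD complex. The genes were taken by symbol alone: the alpha, mu, omega, pi, theta, zeta and microsomal glutathione transferases (Gsta, Gstm, Gsto, Gstp, Gstt, Gstz and Mgst), the glutathione peroxidases (Gpx), peroxiredoxins (Prdx), thioredoxins (Txn) and their reductases (Txnrd), glutaredoxins (Glrx) and superoxide dismutases (Sod), with Gclc, Gclm, Gss, Gsr, Nqo1 and Hmox1. Of 18193 genes on the array 51 met this rule, with 90 probe sets, and 47 of them were bright enough to be tested. The control group (n = 2 arrays) was the line Chd4i-1 without doxycycline, and the Chd4 knockdown group (n = 2) was the same line given 5 ng/ml doxycycline for 3 days. Both groups were kept on gelatin with serum and leukaemia inhibitory factor, and their medium also held pyruvate and β-mercaptoethanol, a thiol reductant. Chd4i-1 was the only RNAi line used here, and no cells given doxycycline without the construct were analysed, so effects of Chd4 loss, of RNAi and of doxycycline cannot be told apart.

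Glutathione is a cysteine-containing tripeptide that is made by glutamate-cysteine ligase and glutathione synthetase and is kept reduced by glutathione reductase at the cost of NADPH. Glutathione transferases attach it to electrophiles, glutathione peroxidases use it to reduce hydrogen and lipid peroxides, and glutaredoxins use it to reduce protein disulphides. Peroxiredoxins remove peroxides with electrons from thioredoxin, which thioredoxin reductase recharges. Many of these genes are known targets of the transcription factor NRF2 (Nfe2l2), which binds the antioxidant response element.

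Chd4, the RNAi target, was lower in both arrays labelled as knockdown. At the brightest of its 3 probe sets it had signals of 2215 and 1826 on the control arrays, and 1155 and 1480 after knockdown, 65.0% of control, and the other 2 probe sets gave 48.5% and 56.1%. The median signal of the array was between 73.4 and 79.4. The 10 embryonic stem cell markers summed to 118804 and 121822 in the controls and to 121078 and 118474 in the knockdown arrays, with none under the median of all signals (76.0). Of these markers 2 were called as higher (Dppa5a and Utf1), 2 as lower (Klf4 and Esrrb) and 6 were not called. The sums therefore do not show that the single markers were unchanged. Markers of some other cell types were higher in knockdown cells. The trophectoderm list summed to 2234 and 2215 on the control arrays, and 4890 and 5077 after knockdown, with 3 of 6 tested markers higher (Tfap2c, Krt18 and Krt7). Of its 9 genes on the array 5 were above 76.0 on all 4 arrays (Tfap2c, Krt18, Eomes, Ascl2 and Hand1) and 3 were below it on all 4 (Cdx2, Elf5 and Gata3). The fibroblast list summed to 597 and 671 against 1099 and 1003, with 2 of 5 tested markers higher (Thy1 and Fbln2). Of its 10 genes 2 were above 76.0 on all 4 arrays (Thy1 and Pdgfrb) and 5 below it on all 4, among them Col1a1 and Col3a1. The collagen gene Col6a3 was above 76.0 on the knockdown arrays only, and Col1a2 on 1 of them. Of the endoderm list 1 of 7 tested markers was higher (Amn) and 1 lower (Lama1), and of the neural list 1 of 5 was higher (Tubb3). The part of such cells in the values below was not tested. In bulk RNA, fewer cells of a type and less RNA per cell cannot be told apart.

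**Figure D1:**
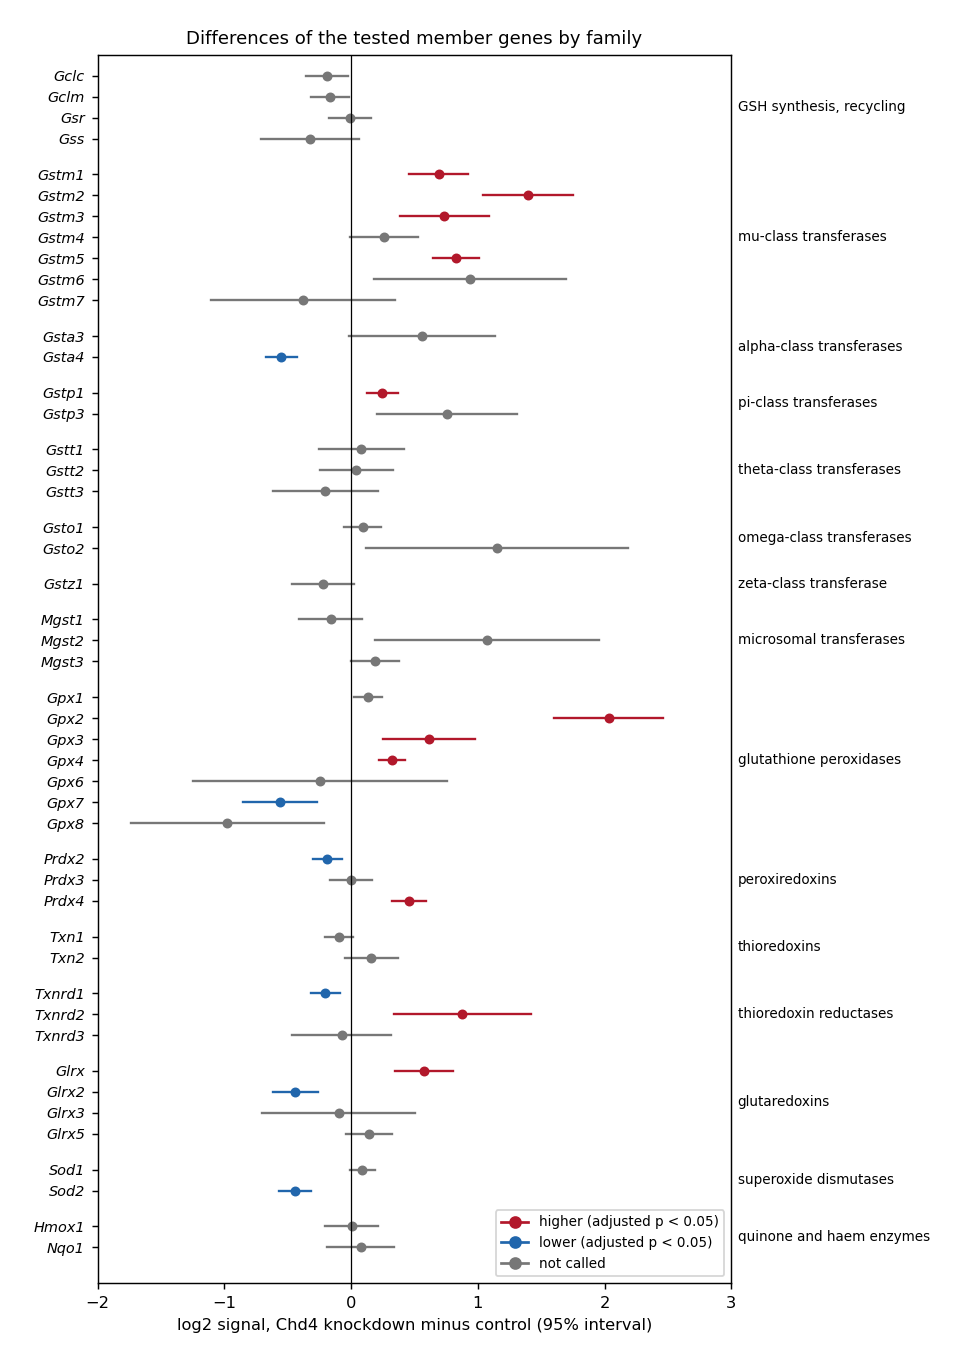
Log2 signal in Chd4 knockdown minus control (x axis) for the 47 tested genes, grouped by family, with 95% intervals from the limma fit (n = 2 arrays per group). Red and blue mark the 11 genes higher and 6 genes lower at an adjusted p under 0.05. Gpx2 lies farthest to the right at 2.03, and the red points of the mu class lie between 0.69 and 1.40.

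After knockdown 11 of the 47 tested genes rose and 6 fell (limma, adjusted over all genes tested). They included 4 mu-class transferases and 3 glutathione peroxidases among the rises and Sod2, Gsta4 and Glrx2 among the falls. The share called was 36.2%, where 20.5% of all 12615 genes tested were called. The set of genes was chosen with earlier results of these data known, so this and the following shares are descriptions only. The share higher was 23.4% against 11.7% of all genes, and the share lower 12.8% against 8.81%. Groups did not overlap for 35 genes (74.5%), where this was so for 60.6% of all genes. Most changes were small: 2 genes, Gpx2 and Gstm2, rose at least 2-fold and 0 fell as much, and the log2 differences of the genes called ran from 0.25 to 2.03 and from -0.19 to -0.56. Over all 51 genes, with signals under 76.0 set to 76.0, the median log2 difference was 0.042, against 0 over all 18193. These calls lean on the intensity trend of the variance model. Without it 3 genes passed as higher (Gstm2, Gstm5 and Mgst2), of which Mgst2 entered the test only through its knockdown arrays, and Gpx2 had an adjusted p of 0.0506. With signals under 76.0 set to that value 4 passed (Gstm5, Gpx4 and Prdx4 higher and Txnrd1 lower), and in a test against a 1.2-fold change 5 did (Gpx2, Gstm1, Gstm2 and Gstm5 higher and Gsta4 lower). Gstm5 was called in all 13 alternatives tried and Gstm2 in 12.

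**Figure D2:**
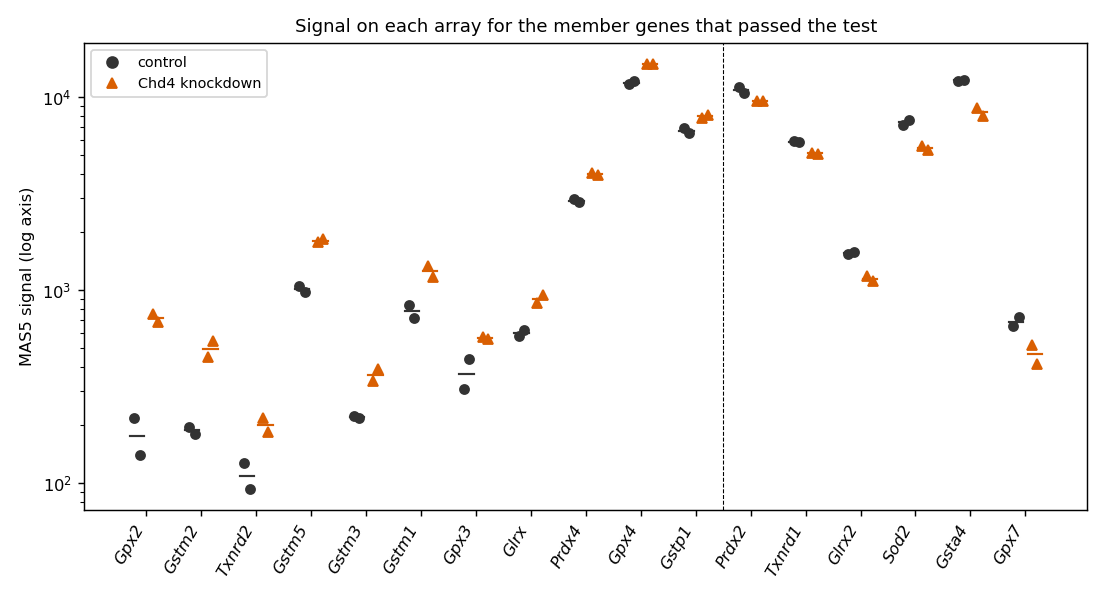
MAS5 signal on each array (log axis) for the 17 genes that passed, in order of log2 difference. Circles are the 2 control arrays, triangles the 2 knockdown arrays, short lines the means of log2 signal, and the dashed line separates the 11 higher from the 6 lower genes. The groups do not overlap for any of the 17 genes, which were picked by the test on these same arrays. Of all genes tested 60.6% had groups that did not overlap. Signals of different genes come from different probes and are not to be compared.

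Promoter stretches are shown for 4 genes, the 2 with the largest rises (Gpx2 and Gstm2), and Gstm5 and Txnrd1, which passed in opposite directions and hold the core of the antioxidant response element. They are the 150 bases before the annotated start, 5′ to 3′ on the strand of the gene, from RefSeq in the GRCm38.p6 build. Capitals mark a match to TGACNNNGC on either strand. Gpx2 lies at chr12:76795555-76795704 (- strand), Gstm2 at chr3:107986421-107986570 (- strand), Gstm5 at chr3:107895704-107895853 (+ strand) and Txnrd1, at 1 of its 3 listed starts, at chr10:82859056-82859205 (+ strand).
Gpx2: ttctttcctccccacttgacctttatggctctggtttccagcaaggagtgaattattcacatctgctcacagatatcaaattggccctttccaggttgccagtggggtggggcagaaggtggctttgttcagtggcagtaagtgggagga
Gstm2: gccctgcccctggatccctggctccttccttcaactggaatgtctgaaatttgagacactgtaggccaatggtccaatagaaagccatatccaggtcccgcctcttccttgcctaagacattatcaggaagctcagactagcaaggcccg
Gstm5: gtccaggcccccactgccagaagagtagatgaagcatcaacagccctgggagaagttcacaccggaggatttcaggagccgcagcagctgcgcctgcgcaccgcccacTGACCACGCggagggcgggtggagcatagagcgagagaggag
Txnrd1: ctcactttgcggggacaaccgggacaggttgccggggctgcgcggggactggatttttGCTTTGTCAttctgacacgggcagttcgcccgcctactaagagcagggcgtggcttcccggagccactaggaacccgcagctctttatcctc

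The match in Gstm5 starts 42 bases before the start site and that in Txnrd1 92 bases before it, on the opposite strand. No match was in the windows of Gpx2 and Gstm2. Of the 51 genes 45 had a promoter window of 300 bases (250 before to 50 after the start) in the RefSeq table, 63 windows in all. The motif was in 7 windows (11.1%), and in 12.4% of all 32851 windows in the table, so the share was near that of promoters in general. The 7 windows belong to Gstm5, which rose, Txnrd1, which fell, and Gclm, Sod1, Gsta3, Gstm7 and Mgst1, which were not called. A longer form with A as its last base, each match of which is also a match of the shorter form, was in 2 of the 63 windows (3.17%) and in 3.04% of all.

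The 4 genes of glutathione synthesis and recycling were all uncalled, and each had a log2 difference below 0. Gclc, the catalytic subunit of glutamate-cysteine ligase, had signals of 1713 and 1760 on the control arrays, and 1506 and 1542 after knockdown (log2 difference -0.19 ± 0.074 SE, adjusted p = 0.0975). Its modifier subunit gene Gclm had 2688 and 2623 against 2438 and 2290 (-0.17 ± 0.068, adjusted p = 0.104). Neither gene's groups overlapped. Both differences had an unadjusted p under 0.05 (0.0272 and 0.0301), as had 33.8% of all genes tested. The further Gclm probe set, 1439050_at, had 401 and 290 against 314 and 590, with overlapping groups. Gss, glutathione synthetase, had 446 and 319 against 290 and 313 (-0.32 ± 0.17, adjusted p = 0.22). Gsr, glutathione reductase, had 3054 and 2718 against 2986 and 2745, with overlapping groups and a 95% interval of -0.18 to 0.16 on the log2 scale.

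Of the 7 mu-class glutathione transferases 4 rose after knockdown, 0 fell and 3 were not called. These cytosolic enzymes conjugate glutathione to a wide range of electrophiles. Of all genes tested 11.7% were called as higher and 8.81% as lower. The log2 difference was above 0 for 6 of the 7 mu-class genes. At an unadjusted p under 0.05 there were 5 higher, Gstm6 being the fifth, and 0 lower, where 18.7% of all genes tested were higher and 15.1% lower. Gstm2 had signals of 196 and 181 on the control arrays, and 450 and 546 after knockdown, a rise of 2.63-fold (log2 1.40 ± 0.16 SE, adjusted p = 0.000159). Gstm5, whose promoter is shown above with its motif, had 1054 and 982 against 1776 and 1835, a rise of 1.77-fold (0.83 ± 0.081, adjusted p = 5.66e-05). Both knockdown arrays lay well above both controls for these genes. Gstm1 had 839 and 716 against 1331 and 1177, a rise of 1.61-fold (0.69 ± 0.11, adjusted p = 0.00119). Gstm3 had 222 and 216 against 339 and 392, a rise of 1.67-fold (0.74 ± 0.16, adjusted p = 0.00772). The call of Gstm3 ended without knockdown replicate 2 (0.63, adjusted p = 0.0531), and when its probe sets were averaged (adjusted p = 0.297).

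The remaining mu-class genes did not pass. Gstm4 had 479 and 468 against 611 and 527 (log2 0.26 ± 0.12 SE, adjusted p = 0.16). Gstm6 was dim in the controls, with 53.4 and 59.8, and had 92.9 and 126 in the knockdown arrays (0.94 ± 0.34, adjusted p = 0.076). Gstm7 had 115 and 85.7 against 66.9 and 86.8, so its groups overlapped (-0.38 ± 0.33, adjusted p = 0.46). The further Gstm7 probe set, 1425946_at, had 127 and 89.0 against 64.8 and 28.1, with no overlap (-1.32 ± 0.45, adjusted p = 0.0765 over probe sets), and with both averaged the Gstm7 difference was -0.85 (adjusted p = 0.149). Mu-class genes are close relatives, and reads of one transcript by the probes of another cannot be told apart where probe sets are not specific. The probe set that stands for Gstm1, 1416416_x_at, carries the suffix that Affymetrix gives to probes with likely matches elsewhere, and that of Gstm3, 1427474_s_at, the suffix for probes shared by several transcripts. The brighter Gstm1 probe set without such a suffix, 1448330_at, had 511 and 532 on the control arrays, and 898 and 853 after knockdown (0.75 ± 0.11, adjusted p = 0.000922 over probe sets). The dimmer one, 1425626_at, had 35.4 and 56.0 against 114 and 71.9 (1.03 ± 0.42, adjusted p = 0.132 over probe sets). The Gstm3 probe set without such a suffix, 1427473_at, was dim, with 51.1 and 56.5 against 55.9 and 57.0.

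The 7 mu-class genes are consecutive protein-coding genes on chromosome 3 in RefSeq, in the order Gstm5, Gstm7, Gstm6, Gstm3, Gstm2, Gstm1 and Gstm4. The next coding genes were read as well, and these neighbours were chosen by position. Past Gstm4, the adenosine monophosphate deaminase gene Ampd2 had 1863 and 1696 on the control arrays, and 2248 and 2276 after knockdown (log2 0.35 ± 0.075 SE, adjusted p = 0.00736). The transducin subunit gene Gnat2 had 424 and 423 against 594 and 582 (0.47 ± 0.12, adjusted p = 0.0147). Both had groups that did not overlap, as had 60.6% of all genes tested. Past Gstm5, Eps8l3 was too dim to test, Csf1 was not called (-0.42 ± 0.51, adjusted p = 0.609), and Ahcyl1 had 2779 and 2981 against 2836 and 2929 (0.0019 ± 0.066, adjusted p = 0.989). Gm12500, which lies between Ampd2 and Gnat2, was too dim to test. Beside the theta-class run on chromosome 10 the neighbours Susd2 (0.88 ± 0.22, adjusted p = 0.0172) and Mif (0.20 ± 0.048, adjusted p = 0.0134) were called as higher, while no theta-class gene was. No tested neighbour of the pi-class, omega-class or Gpx5 and Gpx6 runs was called. Of all genes tested 20.5% were called, and whether position played a part was not tested.

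**Figure D3:**
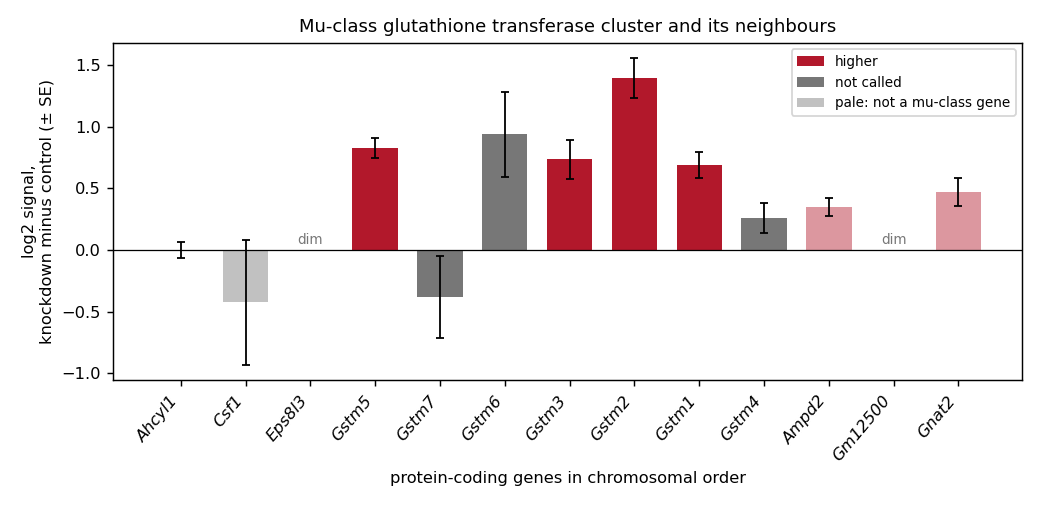
Log2 signal in knockdown minus control (bars, ± SE, n = 2 arrays per group) for the 7 mu-class genes and the 3 protein-coding genes on each side, in chromosomal order but not to genomic scale. Red bars passed the test, grey bars did not, pale bars are not mu-class genes, and dim genes were not tested. The red bars are those of Gstm5, Gstm3, Gstm2, Gstm1, Ampd2 and Gnat2, and Gstm7 is the only mu-class bar below 0.

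Other transferase classes gave 1 rise and 1 fall. Gsta4, an alpha-class enzyme with high activity towards the lipid peroxidation product 4-hydroxynonenal, fell 1.47-fold. Its signals were 12182 and 12295 on the control arrays, and 8757 and 7960 after knockdown (log2 -0.55 ± 0.055 SE, adjusted p = 6.37e-05). Gstp1, the pi-class enzyme, rose 1.19-fold, with 6904 and 6520 against 7787 and 8136 (0.25 ± 0.055, adjusted p = 0.00886), and it was no longer called without control replicate 2 (0.21, adjusted p = 0.0605). Gstp3 had 118 and 97.0 against 158 and 207 (0.76 ± 0.25, adjusted p = 0.0548), and was called among the top 40% of probe sets (adjusted p = 0.0389). Gsta3 had 120 and 89.5 against 163 and 142 (0.56 ± 0.26, adjusted p = 0.161), and Gsta2 was too dim to test. The theta class had 3 tested genes, none called, with log2 differences from -0.20 to 0.082 and overlapping groups, and Gstt4 was too dim to test. Gstz1, the zeta-class enzyme of tyrosine breakdown, had 621 and 588 against 523 and 513 (-0.22 ± 0.11, adjusted p = 0.188).

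The omega class has a redox role more like that of glutaredoxins. Gsto1 had 2369 and 2372 on the control arrays, and 2592 and 2469 after knockdown at its brightest probe set (log2 0.094 ± 0.067 SE, adjusted p = 0.362). That probe set, 1456036_x_at, has the suffix for likely matches elsewhere. The Gsto1 probe set without it, 1416531_at, had 1650 and 1706 against 2415 and 2377 (0.51 ± 0.072, adjusted p = 0.000863 over probe sets), so the call depends on which of the 2 is read. With both averaged Gsto1 was called as higher (0.30, adjusted p = 0.0171). Gsto2 was dim, with 30.2 and 33.5 against 84.2 and 59.3 (adjusted p = 0.108). Of the microsomal transferases, membrane proteins that act on lipids and leukotrienes, none of 3 was called. Mgst1 had 580 and 633 against 543 and 541 (log2 -0.16 ± 0.11 SE, adjusted p = 0.355). Mgst3 had 2004 and 1981 against 2474 and 2082 (0.19 ± 0.086, adjusted p = 0.149), and was called as higher without knockdown replicate 2 (0.31, adjusted p = 0.0232). Mgst2 had 41.4 and 38.5 against 86.2 and 81.9 (1.07 ± 0.40, adjusted p = 0.0821). Its fold is at least 1.10 when signals under 76.0 are set to that value. Mgst2 and Gsto2 passed the filter on dim genes only through their knockdown arrays.

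Among the glutathione peroxidases 3 of 7 tested genes rose, 1 fell and 3 were not called. Of all genes tested 11.7% were called as higher and 8.81% as lower. The calls of Gpx3 and Gpx7 depended on single arrays, as given below. Gpx2, a selenoprotein best known from the gut epithelium, showed the largest rise of the 47 genes tested, 4.09-fold. Its signals were 218 and 140 on the control arrays, and 749 and 682 after knockdown (log2 2.03 ± 0.19 SE, adjusted p = 4.95e-05). Gpx4, which reduces phospholipid hydroperoxides and guards against ferroptosis, rose 1.25-fold, with 11669 and 12120 against 14890 and 14832 (0.32 ± 0.046, adjusted p = 0.000752). The further Gpx4 probe set moved alike (0.30 ± 0.048). Gpx3, the secreted plasma enzyme, rose 1.53-fold, with 306 and 442 against 568 and 558 (0.61 ± 0.17, adjusted p = 0.0228). The call of Gpx3 ended without control replicate 1 (0.35, adjusted p = 0.156) or knockdown replicate 1 (0.60, adjusted p = 0.0598), and in the fit to averaged probe sets (adjusted p = 0.066), although Gpx3 has 1 probe set. The control arrays of Gpx2 and Gpx3 differed more between themselves than the knockdown arrays did.

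Gpx1, the main cytosolic peroxidase, had 8831 and 8905 on the control arrays, and 9469 and 10013 after knockdown. It was not called (log2 0.13 ± 0.051 SE, adjusted p = 0.0854), although its groups did not overlap. Gpx7 and Gpx8, peroxidases of the endoplasmic reticulum that carry cysteine in place of selenocysteine, were the lowest of the family. Gpx7 fell 1.48-fold, with 653 and 724 against 520 and 416 (-0.56 ± 0.13, adjusted p = 0.012). Gpx7 was no longer called without control replicate 2 (-0.49, adjusted p = 0.07) or knockdown replicate 2 (-0.40, adjusted p = 0.0617). Gpx8 had 129 and 199 against 111 and 59.96 (-0.98 ± 0.35, adjusted p = 0.0687). It was called as lower without control replicate 1 (-1.29, adjusted p = 0.0441) or knockdown replicate 1 (-1.42, adjusted p = 0.0156). Gpx6 had overlapping groups and Gpx5, known from the epididymis, was too dim to test.

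The peroxiredoxins gave 1 rise, 1 fall and 1 uncalled gene. Probe sets annotated to Prdx1 together with another gene were not used here. Only Prdx2, Prdx3 and Prdx4 had a probe set annotated to a single symbol, so Prdx1, Prdx5 and Prdx6 were not read. Prdx4, the peroxiredoxin of the endoplasmic reticulum, rose 1.37-fold at its brightest probe set, 1416167_at, with 2955 and 2876 on the control arrays, and 4034 and 3966 after knockdown (log2 0.46 ± 0.060 SE, adjusted p = 0.000416). Its probe sets disagreed: 1416166_a_at had 710 and 727 against 605 and 641, a difference of -0.21 ± 0.11, and 1435731_x_at one of -0.18 ± 0.16. Averaged over its 4 probe sets Prdx4 was not called (0.11, adjusted p = 0.561). Prdx2, the abundant cytosolic form, fell 1.14-fold, with 11275 and 10503 against 9601 and 9515 (-0.19 ± 0.052, adjusted p = 0.0262). Its call ended without control replicate 1 (-0.14, adjusted p = 0.184), knockdown replicate 1 (-0.19, adjusted p = 0.0531) or knockdown replicate 2 (-0.18, adjusted p = 0.0676), with its probe sets averaged (adjusted p = 0.218) and with no filter on dim genes (adjusted p = 0.056). Prdx3, the mitochondrial form, had 1767 and 1671 against 1759 and 1677, a 95% interval of -0.17 to 0.17 on the log2 scale.

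Thioredoxin itself was not called. Txn1, the cytosolic protein, had 14507 and 15700 on the control arrays, and 14110 and 14186 after knockdown (log2 -0.093 ± 0.050 SE, adjusted p = 0.223), and it was called as lower after quantile normalization (-0.15, adjusted p = 0.0219). Txn2, its mitochondrial counterpart, had 1172 and 1109 against 1181 and 1376 (0.16 ± 0.095, adjusted p = 0.267). Further Txn2 probe sets had the opposite sign, 1455640_a_at (-0.024 ± 0.085) and 1421557_x_at (-0.16 ± 0.087). Of the reductases, selenoproteins that use NADPH, the cytosolic Txnrd1 fell and the mitochondrial Txnrd2 rose.

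Txnrd1 fell 1.15-fold at its brightest probe set, 1421529_a_at, with 5922 and 5869 on the control arrays, and 5160 and 5090 after knockdown (log2 -0.20 ± 0.053 SE, adjusted p = 0.0211). Its call ended without control replicate 1 (-0.20, adjusted p = 0.0905), control replicate 2 (-0.21, adjusted p = 0.0716) or knockdown replicate 2 (-0.19, adjusted p = 0.0642). Its other probe sets showed larger falls: 1424486_a_at had 1181 and 1132 against 779 and 681 (-0.67 ± 0.10, adjusted p = 0.00152 over probe sets). Probe set 1424487_x_at had 763 and 577 against 323 and 302 (-1.09 ± 0.15, adjusted p = 0.000843 over probe sets). All 3 were lower on both knockdown arrays than on either control. Txnrd2 rose 1.84-fold, with 127 and 93.4 against 217 and 185 (0.88 ± 0.25, adjusted p = 0.0272). The call of Txnrd2 ended without control replicate 2 (0.65, adjusted p = 0.136) or knockdown replicate 1 (0.76, adjusted p = 0.131), with its probe sets averaged (adjusted p = 0.253) and with no filter on dim genes (adjusted p = 0.0602). For Txnrd2, 1 of its 2 further probe sets above the filter had the opposite sign (-0.23 ± 0.23). Txnrd3, known from the testis, had overlapping groups (-0.072 ± 0.18, adjusted p = 0.822).

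**Figure D4:**
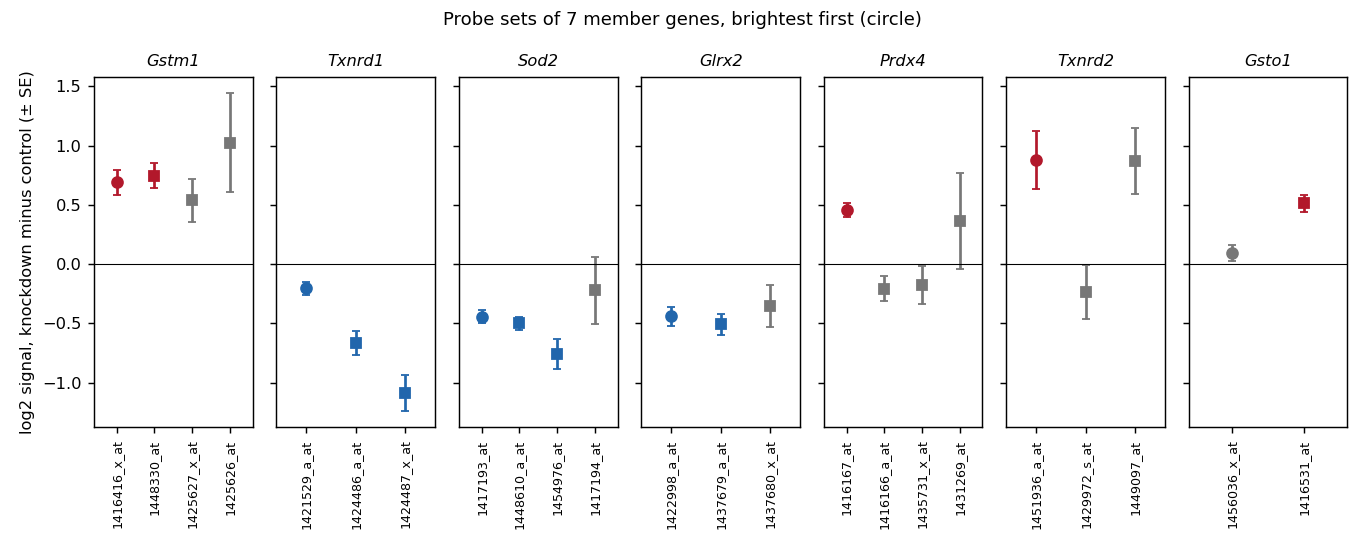
Log2 signal in knockdown minus control (± SE, n = 2 arrays per group) at every probe set above the filter for 7 genes, brightest first (circle), with red and blue for probe sets higher and lower at an adjusted p under 0.05 over probe sets. The 3 probe sets of Txnrd1 and the 4 of Sod2 all lie below 0, while those of Prdx4 and Txnrd2 lie on both sides.

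The glutaredoxins split in direction. Glrx, the cytosolic glutaredoxin, rose 1.49-fold, with 578 and 624 on the control arrays, and 855 and 938 after knockdown (log2 0.58 ± 0.10 SE, adjusted p = 0.00302). Its further probe set moved alike (0.66 ± 0.12). Glrx2, the mitochondrial form, fell 1.36-fold, with 1537 and 1575 against 1185 and 1109 (-0.44 ± 0.081, adjusted p = 0.00326). The 2 further probe sets of Glrx2 had the same sign. Glrx5, which acts in mitochondrial iron-sulphur cluster assembly, was not called (0.14 ± 0.082, adjusted p = 0.262) but was without control replicate 1 (0.28, adjusted p = 0.0292). Glrx3 was read only by a probe set of low signal, with 131 and 101 against 106 and 109.

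Sod2, the manganese superoxide dismutase of mitochondria, fell 1.36-fold. It had signals of 7200 and 7654 on the control arrays, and 5612 and 5323 after knockdown (log2 -0.44 ± 0.057 SE, adjusted p = 0.000357). Of its 3 further probe sets 1448610_a_at (-0.50 ± 0.057) and 1454976_at (-0.76 ± 0.13) were also called as lower, and 1417194_at (-0.22 ± 0.28) was not. Sod1, the cytosolic copper-zinc enzyme, was not called, with 14062 and 13853 against 14850 and 14840 (0.089 ± 0.044, adjusted p = 0.187). A further Sod1 probe set of similar signal, 1459976_s_at, had the opposite sign, with 13207 and 14084 against 12394 and 13181 (-0.094 ± 0.053). Dimmer ones lay on both sides of 0 (0.017 for 1435304_at and -0.10 for 1440222_at). Sod3, the extracellular form, was too dim to test. Nqo1, a quinone reductase, had 543 and 489 against 571 and 517 (0.076 ± 0.12, adjusted p = 0.712), and the haem oxygenase gene Hmox1 had 1863 and 1542 against 1765 and 1640 (0.0053 ± 0.095, adjusted p = 0.977). Both had overlapping groups.

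Some features cut across the families. Their counts stand beside 11.7% of all genes tested that were higher and 8.81% that were lower. Of 6 genes that are widely used as NRF2 targets (Gclc, Gclm, Gsr, Nqo1, Hmox1 and Txnrd1), 0 rose and 1, Txnrd1, fell in limma. At an unadjusted p under 0.05 Gclc and Gclm were lower too, where 15.1% of all genes tested were lower. Other known NRF2 targets among the 47 tested genes were not counted here. The count of 6 therefore does not show how NRF2 targets as a whole moved. Of all 47 genes 11 rose, among them Gpx2, Gstm1 and Gstp1, and 6 fell. Of 6 mitochondrial proteins 1 rose (Txnrd2), 2 fell (Sod2 and Glrx2) and Txn2, Prdx3 and Glrx5 were not called. Of 7 selenoproteins 4 rose (Gpx2, Gpx3, Gpx4 and Txnrd2), 1 fell (Txnrd1), and Gpx1 and Txnrd3 were not called. The calls of Gpx3, Txnrd2 and Txnrd1 depended on single arrays, as given above, and a further Txnrd2 probe set had the opposite sign. Where a called gene had further probe sets above the filter, all of them had the same sign in 8 of 10 genes, with Prdx4 and Txnrd2 as the exceptions. These groupings were made with the values known and were not tested.

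Genes of the same pathways outside the rule were read from 7 lists. Of 123 entries 103 were tested, of which 15 rose and 16 fell (30.1%, against 20.5% of all genes tested). Beside the counts of each list below stand 11.7% of all genes tested that were higher and 8.81% that were lower. These lists too were chosen with earlier results of these data known. Among 14 regulators of the NRF2 pathway 2 rose and 1 fell. Nfe2l2, which encodes NRF2, fell 1.27-fold, with 2689 and 2885 on the control arrays, and 2136 and 2269 after knockdown (log2 -0.34 ± 0.071 SE, adjusted p = 0.00631). Sqstm1, an adaptor that competes for KEAP1, rose 1.25-fold and the small Maf gene Maff 1.41-fold (adjusted p = 0.00782 and 0.0481). Keap1, which targets NRF2 for degradation, had 400 and 488 against 372 and 299 (-0.41 ± 0.16, adjusted p = 0.0963).

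In the list of peroxide, sulfoxide and quinone reductases 2 of 20 tested genes rose and 6 fell. The rises were Sesn3 (1.94-fold, adjusted p = 0.00576) and Hmox2 (1.24-fold, adjusted p = 0.0349). The carbonyl reductase gene Cbr3 fell 3.09-fold, with 608 and 392 on the control arrays, and 159 and 157 after knockdown (adjusted p = 0.000299). Ccs, the copper chaperone of Sod1, fell 1.76-fold, with 1154 and 957 against 596 and 602 (adjusted p = 0.000518), and the quinone reductase gene Nqo2 fell 1.79-fold, with 499 and 550 against 307 and 278 (adjusted p = 0.00157). Srxn1, the sulfiredoxin that repairs oxidised peroxiredoxins, fell 1.3-fold (adjusted p = 0.0457). Cat, catalase, was not called (log2 0.057 ± 0.071 SE, adjusted p = 0.624). Msrb3 was too dim over all arrays to be tested, with 5.82 and 10.7 on the control arrays, and 187 and 173 after knockdown. Its fold is at least 2.36 when signals under 76.0 are set to that value. Osgin1 was also too dim to test, with every array under 76.0.

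The list of glutathione precursor uptake, turnover and export had 4 rises and 4 falls among 15 tested genes. Cbs, which starts the route from homocysteine to cysteine, rose 1.59-fold (adjusted p = 0.00259), and Chac1, which degrades glutathione, rose 1.38-fold (adjusted p = 0.00779). The leucine aminopeptidase gene Lap3 fell 1.2-fold (adjusted p = 0.00363). Slc7a11, the cystine importer, was too dim to test, with 11.8 and 37.6 against 44.6 and 28.8. In the list of NADPH supply 3 of 14 tested genes rose and 2 fell. The transhydrogenase gene Nnt fell 1.5-fold (adjusted p = 0.00357), the isocitrate dehydrogenase gene Idh1 rose 1.2-fold (adjusted p = 0.00772), and Pgls, of the pentose phosphate pathway, fell 1.21-fold (adjusted p = 0.0179).

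Among 20 tested thioredoxin relatives 1 rose, the disulphide isomerase gene P4hb (1.19-fold, adjusted p = 0.00531), and 2 fell, Txndc15 (1.22-fold, adjusted p = 0.0311) and the thioredoxin-binding Txnip (1.17-fold, adjusted p = 0.0231). Among 10 tested transferase relatives 2 rose, the kappa-class gene Gstk1 (1.39-fold, adjusted p = 0.0359) and Clic4 (1.17-fold, adjusted p = 0.0432), and 1 fell, Clic1 (1.23-fold, adjusted p = 0.0268). Of 10 tested genes of selenoprotein synthesis 1 rose, the seryl-tRNA synthetase gene Sars (1.24-fold, adjusted p = 0.00203), and the others were not called.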

How the data were processed

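RNA from the 4 cultures was hybridised to single-colour Affymetrix arrays. The deposited values are linear signal intensity for 45101 probe sets, made by the authors with MAS5 per the submitters' processing notes, with version and scaling target not given in the sources used here. Detection calls were not used here. Groups and replicate numbers came from the sample titles. Per the series text, duplicates are biological. Probe sets were named from the platform annotation, and the 932 with several symbols, 9160 with none and 64 controls were left out, among them 10 with a name that meets the rule. Each gene was read from the brightest of its probe sets by mean log2 signal, and genes in the top 60% of probe sets (signal 42.4 or more) were tested, 12615 in all.

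Differences are log2 signal in knockdown minus control, with no pseudocount, tested in limma 3.58.1 under R 4.3.3 (two-sided). The variance prior followed the signal (9.12 prior degrees of freedom beside 2 residual ones), which the text calls the intensity trend, and p values had Benjamini-Hochberg adjustment over all genes tested, at a threshold of 0.05. Single probe sets were fitted and adjusted among all probe sets above the filter. A floor at the median signal of 76.0 was used for the medians over lists and the folds given as "at least". Motifs were searched in RefSeq promoter windows. The alternatives were a pseudocount of 16, quantile normalization, other filters, no intensity trend, averaged probe sets, the floor, a replicate block, each array left out and a test against a 1.2-fold change. Named were the genes that passed, the 10 brightest, Gclc, Gclm, Gss, Gsr, Nqo1 and Hmox1, further members by family, up to 3 called genes in each pathway list with Nfe2l2, Keap1, Slc7a11, Txnip, Cat and Srxn1, and Chd4. Msrb3 and Osgin1 were named as the untested genes of their list, and Sesn3 and Hmox2 as its rises. The members and lists were chosen with earlier results of these data known. The number of arrays limits the precision.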

Additional observations from a re-analysis of the deposited data

How the results depend on the processing

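The counts of genes called depended most on how variance was modelled. Without the intensity trend 3 of the glutathione, peroxiredoxin and thioredoxin genes were called, 3 higher (with Mgst2, tested only through its knockdown arrays) and 0 lower, beside 421 of all genes and 1 gene of the pathway lists. With signals floored at the median 4 were called, 3 higher and 1 lower, beside 691 of all genes and 6 of the lists. Against a 1.2-fold change 5 were called, 4 higher and 1 lower, beside 644 of all genes and 5 of the lists. In these 3 settings Chd4 kept its log2 difference of -0.62 but missed the threshold (adjusted p = 0.146, 0.168 and 0.0977). The cause was not tested. With probe sets averaged 1326 of all genes and 17 of the lists were called. Leaving out each array gave 13 to 16 genes called, 9 to 11 higher and 3 to 6 lower, 1785 to 2145 of all genes, 15 to 26 of the lists and -0.80 to -0.44 for Chd4. The lowest count of lower genes, 3, came without knockdown replicate 2, and the lowest of the lists, 15, without control replicate 2. The pseudocount, quantile normalization, both other filters and the replicate block left the counts of these genes within 1.5 times. No called gene changed sign in any setting. Uncalled genes that did were Gclm (0.085), Sod1 (-0.0011), Txn1 (0.048), Mgst3 (-0.065), Txn2 (-0.0088) and Txnrd3 (0.028) with probe sets averaged and Prdx3 (0.0045) under quantile normalization. With an array left out they were Gsr (-0.093 to 0.075), Hmox1 (-0.13 to 0.14), Nqo1 (-0.00025 to 0.15), Glrx3 (-0.28 to 0.089), Gpx6 (-0.83 to 0.34), Gstt1 (-0.088 to 0.25), Gstt2 (-0.13 to 0.22), Gstt3 (-0.50 to 0.098), Prdx3 (-0.040 to 0.040) and Txnrd3 (-0.25 to 0.10). The longer motif was in 3.17% of promoter windows. The same replicate number did not pair arrays (correlation of deviations 0.018); with the replicate block 17 genes were called, 11 higher and 6 lower, and 2260 of all genes.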
